A study of Caenorhabditis elegans with 6 samples.

Results

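The genes described here mark the intestine of Caenorhabditis elegans and build its absorptive surface: elt-2, elt-7, act-5, vha-6, pept-1, ifb-2 and ifo-1. They were chosen by name, and every worm probe of these 7 genes was taken, which gave 9 of the 22490 worm probes on the array and 7 of the 18880 genes it covered. One probe matched each gene except ifb-2, which had 3. Whole worms of the wild type strain N2 that had grown on agar with diazinon (DZN), an organophosphorus insecticide dissolved in acetone, were compared with control worms grown on agar with acetone alone. Both groups carried no transgene or mutation per the labels, were fed E. coli OP50, and were collected 72 h after the eggs were placed on the dishes at 16 °C, as larvae labelled L3/L4 but called L3 in the treatment protocol. The dose stood as 1 mg/ml in the sample names and 0.5 mg/ml in the treatment protocol, while the methods of the study gave a concentration per litre, so it is not settled here. RNA of DZN-treated and control worms was hybridised together on 6 arrays of 2 colours, with DZN in Cy5 and control in Cy3 on 3 of them (DZN-Cy5 replicates 1 to 3) and the dyes swapped on the other 3 (DZN-Cy3 replicates 1 to 3). The methods call the 6 arrays biological replicates, each extract being a pool of worms from several dishes.

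The worm intestine is a tube of polarised epithelial cells that digests food, takes up nutrients and stores fat. ELT-2 is the GATA-type transcription factor that maintains the fate of these cells, binding upstream of a large share of intestinal genes, and ELT-7 is a second GATA factor that acts alongside it. The surface facing the gut lumen is a brush border of microvilli filled with the actin ACT-5. Beneath the microvilli lies the endotube, a tough sheath of intermediate filaments that contains IFB-2 and is organised by IFO-1. VHA-6 is the subunit that places the vacuolar proton pump in this membrane, and PEPT-1 uses the resulting proton gradient to import short peptides. As whole worms were used, a change in the share of intestinal tissue and a change in RNA per cell cannot be told apart.

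The 9 probes were bright, except that of elt-7 on DZN-Cy5 replicate 2. Each was above background (foreground over the mean local background by more than 2 SD of it) on 12 of 12 channels, the 6 arrays each having a DZN and a control channel. Over all worm probes 49.7% to 81.4% were above background per channel, and the 3 arrays with DZN in Cy3 were the brighter ones, with 63.3% to 81.4% against 49.7% to 66.2%. DZN-Cy5 replicate 2 was the dimmest array, with a median foreground of 250 in its DZN channel and 188 in its control channel. Of 31 marker genes for 7 tissues or tissue products, among them intestine, muscle, neurons, hypodermis and germline, 28 were above background on 12 channels and the others on 10 or 11, so signal from each was present. Levels below are normalized log2 intensities, given as mean ± SD over 6 channels, and differences are log2 ratios of DZN over control, given ± the standard error of limma with n = 6 arrays. Levels of different probes are not set against each other, since probes differ in how well they bind.

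None of the 7 genes differed between DZN-treated and control worms beyond the spread between arrays. Limma called 0 of the 9 probes after adjustment over all worm probes, and 0 had an unadjusted p under 0.05. Rank products, the test named by the study, also called 0 of the 9. The background of these tests was 4 probes (0.0178%) for limma, 2442 probes (10.9%) at an unadjusted p under 0.05 and 262 probes (1.16%) for rank products. Every probe of the 7 genes was higher with DZN on some arrays and lower on others. Over all worm probes only 5.17% kept 1 direction on all 6, so mixed directions were the usual case. The median log2 ratio was -0.013 over the 7 genes, each represented by its brightest probe, and -0.0057 over all genes. The ratios ran from -0.12 for pept-1 to 0.18 for elt-7.

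**Figure D1:**
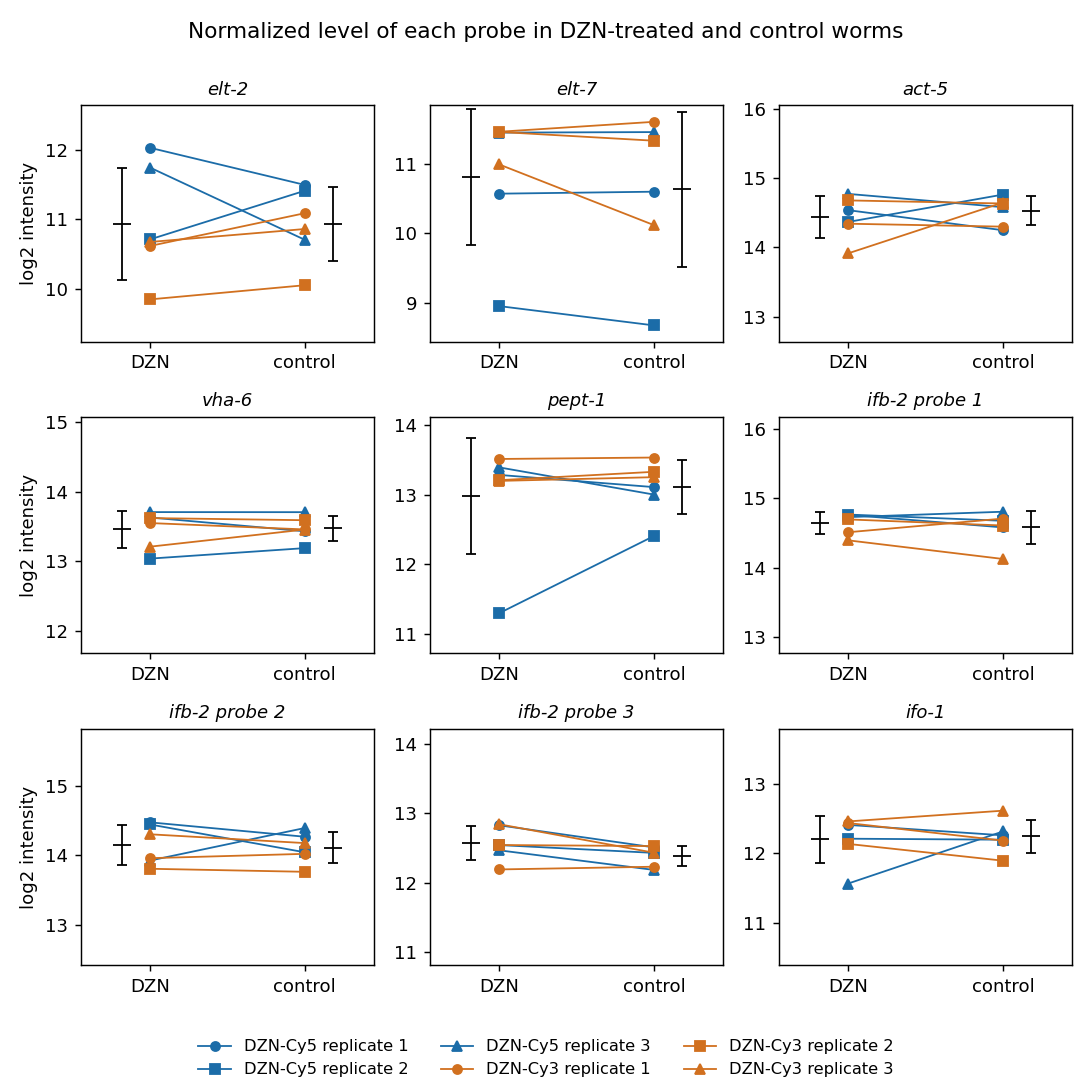
Normalized log2 intensity (vertical axis, the same span of log2 units in each panel) of the 9 probes in DZN-treated and control worms, with a line joining the 2 channels of each array and black bars for mean ± SD over 6 channels. The groups overlapped for every probe, and elt-7, pept-1 and vha-6 were lowest in both channels of DZN-Cy5 replicate 2.

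The transcription factor gene elt-2 (C33D3.1, chromosome X) had lowest, median and highest levels of 9.85, 10.69 and 12.03 in DZN-treated worms, against 10.05, 10.97 and 11.49 in control worms. The groups overlapped almost completely, with means of 10.94 ± 0.81 in DZN-treated and 10.93 ± 0.53 in control worms. The log2 ratio was 0.0018 ± 0.21 (adjusted p = 0.998 in limma), with a 95% interval of -0.49 to 0.49, or 0.713-fold to 1.41-fold. This near-zero mean hid ratios of opposite sign. With DZN in Cy5 the ratio was 0.53, -0.70 and 1.04 for replicates 1 to 3, and with DZN in Cy3 it was -0.47, -0.20 and -0.19. Thus elt-2 was higher with DZN on 2 arrays and lower on 4, and its standard error exceeded that of 88.7% of worm probes. The mean ratio was 0.29 with DZN in Cy5 and -0.29 with DZN in Cy3, a difference of 0.58 ± 0.42 that did not pass the test of the dye term (adjusted p = 0.599). Without DZN-Cy5 replicate 3 the ratio was -0.19, and without DZN-Cy5 replicate 2 it was 0.25.

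For elt-7 (C18G1.2, chromosome V) the lowest, median and highest levels were 8.95, 11.22 and 11.46 in DZN-treated worms, against 8.67, 10.96 and 11.60 in control worms. The means were 10.81 ± 0.98 in DZN-treated and 10.63 ± 1.11 in control worms. The log2 ratio of 0.18 ± 0.15 was the highest of the 7 genes (adjusted p = 0.677), with a 95% interval of 0.897-fold to 1.44-fold. The DZN-Cy5 arrays gave -0.028, 0.28 and -0.0076 for replicates 1 to 3, and the DZN-Cy3 arrays gave -0.14, 0.13 and 0.87. A single array, DZN-Cy3 replicate 3, thus gave most of the difference, and without it the ratio was 0.036. In both treatments DZN-Cy5 replicate 2 lay far below the other arrays, with foregrounds of 311 in DZN-treated and 188 in control worms, although the spot was still above background there. Empty spots of that array had a median foreground of 160 in the DZN channel and 156 in the control channel. The control level of elt-7 on that array, and so its ratio of 0.28, was thus near the floor.

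The microvillar actin act-5 (T25C8.2, chromosome III) had lowest, median and highest levels of 13.92, 14.45 and 14.77 in DZN-treated worms, against 14.25, 14.61 and 14.76 in control worms. The means were 14.44 ± 0.30 in DZN-treated and 14.53 ± 0.21 in control worms. The log2 ratio was -0.093 ± 0.15 (adjusted p = 0.854), with a 95% interval of 0.735-fold to 1.20-fold. The single arrays gave 0.29, -0.39 and 0.19 for DZN-Cy5 replicates 1 to 3 and 0.042, 0.044 and -0.73 for DZN-Cy3 replicates 1 to 3. Act-5 was therefore positive on 4 of 6 arrays while its mean was negative, and the mean turned to 0.036 without DZN-Cy3 replicate 3 and to 0.013 without DZN-Cy5 replicate 2. The actins of other tissues, act-1 to act-4, had ratios between -0.078 and 0.12 with 0 of 4 called. These genes are close relatives of act-5, and binding of their RNA to its probe was not tested.

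Of the endotube genes, ifb-2 (F10C1.7, chromosome II) was measured by 3 probes, probe 1 named after transcript a and probes 2 and 3 after transcript c. The brightest, probe 1, had lowest, median and highest levels of 14.39, 14.71 and 14.77 in DZN-treated worms, against 14.13, 14.64 and 14.81 in control worms. The groups overlapped, with means of 14.64 ± 0.15 in DZN-treated and 14.58 ± 0.24 in control worms. Its log2 ratio was 0.059 ± 0.11 (adjusted p = 0.868), with a 95% interval of 0.879-fold to 1.23-fold. The single arrays gave 0.18, 0.090 and -0.077 for DZN-Cy5 replicates 1 to 3 and -0.20, 0.087 and 0.27 for DZN-Cy3 replicates 1 to 3. Probe 2 gave 0.041 ± 0.13 (adjusted p = 0.935) and probe 3 gave 0.18 ± 0.11 (adjusted p = 0.56), so the 3 probes had mean ratios of one sign, none of them called. On single arrays the 3 probes of this gene differed by 0.072 to 0.75 on the log2 scale. The widest gap was on DZN-Cy5 replicate 3, where probe 2 gave -0.47 and probe 3 gave 0.28. At most 4.8% of the pixels of the probe 1 spot were saturated on a channel, and no other spot of the 7 genes had a saturated pixel.

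The organiser of these filaments, ifo-1 (F42C5.10, chromosome IV), had lowest, median and highest levels of 11.56, 12.31 and 12.46 in DZN-treated worms, against 11.89, 12.22 and 12.61 in control worms. The groups overlapped, with means of 12.20 ± 0.34 in DZN-treated and 12.24 ± 0.23 in control worms. The log2 ratio was -0.041 ± 0.14 (adjusted p = 0.942), with a 95% interval of 0.771-fold to 1.23-fold. The DZN-Cy5 arrays gave 0.15, 0.014 and -0.75 for replicates 1 to 3, and the DZN-Cy3 arrays gave 0.25, 0.24 and -0.15. The mean turned positive when DZN-Cy5 replicate 3 (0.098) or DZN-Cy3 replicate 3 (0.026) was left out.

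The apical pump subunit vha-6 (VW02B12L.1, chromosome II) had the smallest standard error of the 7 genes. Its lowest, median and highest levels were 13.04, 13.59 and 13.71 in DZN-treated worms, against 13.19, 13.46 and 13.71 in control worms. The means were 13.46 ± 0.27 in DZN-treated and 13.47 ± 0.17 in control worms. The log2 ratio was -0.013 ± 0.10 (adjusted p = 0.977), and the 95% interval was the narrowest of the 7, 0.839-fold to 1.17-fold. No array gave a ratio beyond 0.25 in size: DZN-Cy5 replicates 1 to 3 gave 0.20, -0.15 and 0.00097, and DZN-Cy3 replicates 1 to 3 gave 0.092, 0.031 and -0.25. Leaving out DZN-Cy5 replicate 2 gave a mean of 0.029 and leaving out DZN-Cy3 replicate 3 one of 0.039.

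The peptide transporter pept-1 (K04E7.2, chromosome X) had lowest, median and highest levels of 11.30, 13.25 and 13.51 in DZN-treated worms, against 12.41, 13.18 and 13.54 in control worms. The means were 12.98 ± 0.84 in DZN-treated and 13.11 ± 0.39 in control worms. The log2 ratio was -0.12 ± 0.19 (adjusted p = 0.846), with a 95% interval of 0.673-fold to 1.25-fold. The single arrays gave 0.18, -1.11 and 0.39 for DZN-Cy5 replicates 1 to 3 and -0.021, -0.12 and -0.053 for DZN-Cy3 replicates 1 to 3. The low value came from DZN-Cy5 replicate 2 alone, without which the ratio was 0.11 ± 0.11 (adjusted p = 0.813).

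**Figure D2:**
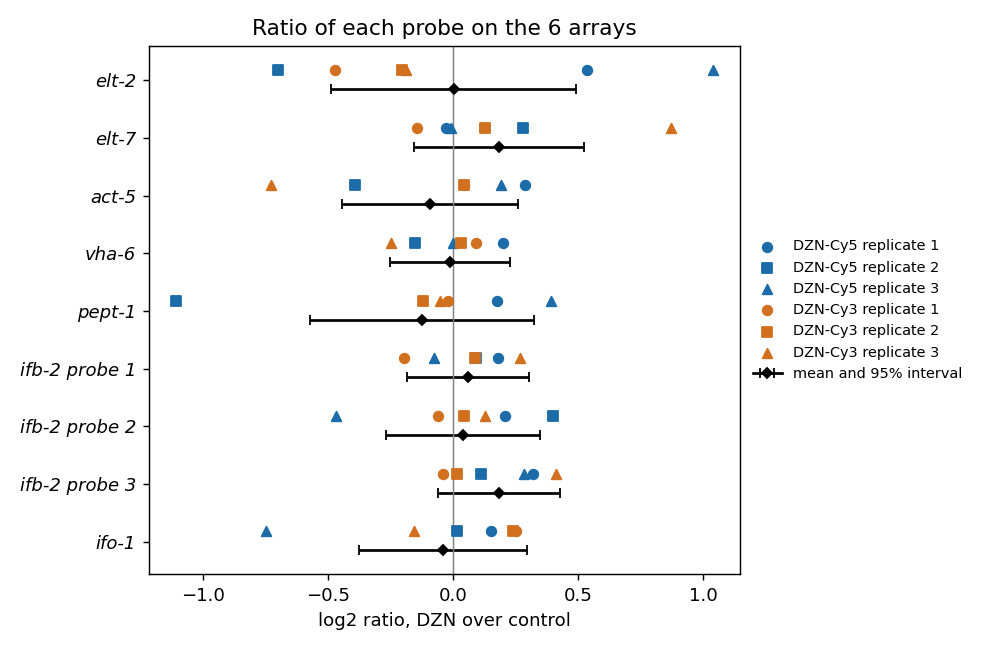
Log2 ratio of DZN over control (horizontal axis) for each probe, with a coloured point per array and a black diamond with the 95% interval of limma below them. Each interval includes 0, and the widest are those of elt-2 and pept-1, whose single arrays ran from -0.70 to 1.04 and from -1.11 to 0.39.

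Over the 7 genes the lowest bound of a 95% interval was 0.673-fold, for pept-1, and the highest was 1.44-fold, for elt-7. A difference within the interval of a gene was not excluded by these arrays. The standard error was below that of most worm probes for vha-6 and ifb-2 probe 1 (14.8% and 17.5% of probes had a smaller one). It was larger than that of most probes for ifo-1, elt-7, act-5, pept-1 and elt-2, with 60.9%, 63.0%, 66.2%, 84.6% and 88.7% of probes below. The dye term passed for none of the 9 probes after adjustment or at an unadjusted p under 0.05, against 0 probes after adjustment and 2625 (11.7%) at an unadjusted p under 0.05 over the whole array. Its adjusted p ran from 0.599 for elt-2 to 0.991 for ifb-2 probe 2.

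The genes also varied between arrays apart from the treatment. The mean of the DZN and control level on an array had an SD over the 6 arrays of 0.17 for act-5, 0.18 for ifb-2 probe 1, 0.21 for vha-6 and 0.22 for ifo-1. It was 0.60 for elt-2, 0.60 for pept-1 and 1.03 for elt-7, and the median over the 9458 probes above background on 12 channels was 0.56. Bright probes varied less, so each was also placed among such probes within 0.5 of its own level. There, 5.09% of probes varied less than ifo-1, 15.3% less than vha-6, 27.6% less than act-5 and 38.6% less than ifb-2 probe 1. For elt-2 the share was 45.6%, for pept-1 83.5% and for elt-7 92.7%. Set beside probes of like level, elt-7 and pept-1 were thus among the more variable, ifo-1 and vha-6 among the less variable, and elt-2, ifb-2 probe 1 and act-5 lay between. These shares are descriptions.

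**Figure D3:**
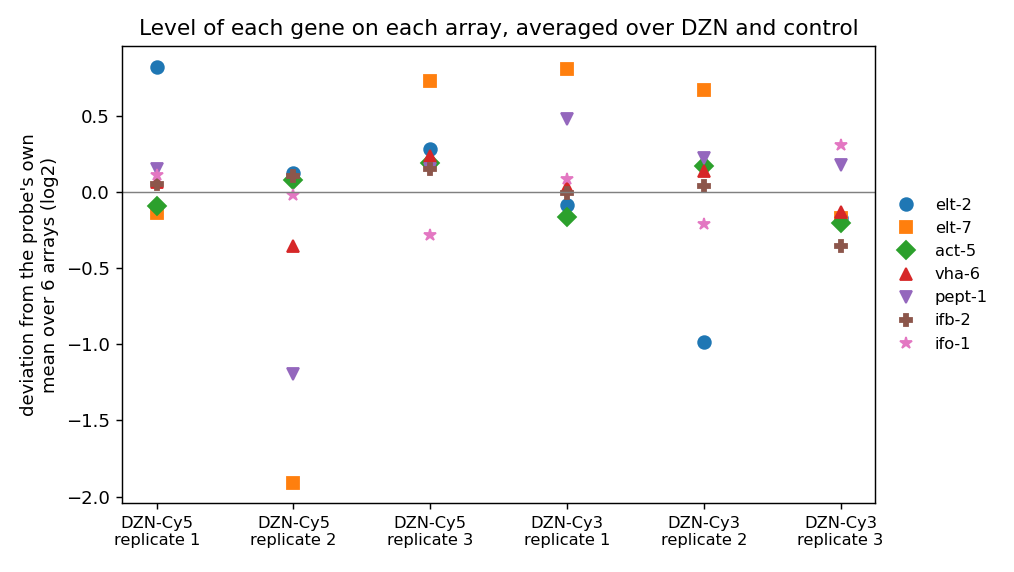
Deviation of each gene's level on an array (mean of the DZN and control channels) from that probe's own mean over 6 arrays (vertical axis, log2), for the brightest probe of each of the 7 genes and each array (horizontal axis). On DZN-Cy5 replicate 2 elt-7 lay at -1.91 and pept-1 at -1.19, while elt-2 lay at 0.13 on that array and at -0.99 on DZN-Cy3 replicate 2.

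The 2 GATA factors had their lowest normalized levels on different arrays. Before normalization the foreground of elt-2, like that of elt-7, was lowest on DZN-Cy5 replicate 2, at 979 in DZN-treated and 605 in control worms. On DZN-Cy3 replicate 2 the foreground of elt-2 was 2949 and 2855, so its place there as lowest held only after normalization. On DZN-Cy5 replicate 2, the dimmest array, the level of elt-7 averaged over both channels was 8.81, a deviation of -1.91 from its mean, while that of elt-2 was 11.06, a deviation of 0.13. On DZN-Cy3 replicate 2 it was elt-2 that stood lowest, at 9.95, while elt-7 stood at 11.40. Across the 6 arrays the ratios of elt-2 and elt-7 had Pearson's r = -0.28 (exact permutation p = 0.60) and Spearman's rho = -0.14 (exact permutation p = 0.803), and r was 0.40 without DZN-Cy5 replicates 1 and 3, the arrays farthest from the median of elt-2, so that no direction can be given for this pair. Thus only elt-7 was low on the dimmest array. Only elt-2 differed by dye orientation on every array, at 11.06 to 11.76 with DZN in Cy5 and 9.95 to 10.85 with DZN in Cy3. The part of spot brightness and of dye orientation in these levels was not tested.

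Over all 21 pairs of the 7 genes, the ratios on the 6 arrays gave r between -0.91 and 0.93, positive for 10 pairs. By two-sided exact permutation tests 3 pairs had an unadjusted p under 0.05 for r, and 0 pairs passed after Benjamini-Hochberg adjustment for r or for rho. For rho, the smallest p that 6 arrays can give is 0.00278, and for r it can be lower. The highest r was that of act-5 and vha-6, 0.93 (exact permutation p = 0.0111, adjusted p = 0.117), with rho = 0.77 (exact permutation p = 0.103, adjusted p = 0.525). Both genes had their lowest ratios on DZN-Cy5 replicate 2 and DZN-Cy3 replicate 3, and without those 2 arrays, the farthest from the median ratio of act-5 and also of elt-7, r was 0.55. The lowest was that of elt-7 and act-5, -0.91 (exact permutation p = 0.0167, adjusted p = 0.117), with rho = -0.66 (exact permutation p = 0.175, adjusted p = 0.525), and r was -0.066 without the same 2 arrays. For elt-7 and vha-6 r was -0.87 (exact permutation p = 0.0125, adjusted p = 0.117), with rho = -0.89 (exact permutation p = 0.0333, adjusted p = 0.525), and r was -0.37 without them. The relation of elt-7 and act-5 thus rested on those 2 arrays, while the other 2 kept their sign at a smaller size over the 4 arrays left, which hold a narrower range of ratios. For elt-2 and pept-1 r was 0.78 (exact permutation p = 0.0639, adjusted p = 0.335), with rho = 0.83 (exact permutation p = 0.0583, adjusted p = 0.525), and r was 0.81 without DZN-Cy5 replicates 1 and 3. Within 1 dye orientation there were 3 arrays, too few for a value.

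For each gene the 3 genes with the most similar pattern of levels over the 12 channels were sought among 8377 candidates that were above background on all channels. The channels of one array share their spots, so these correlations are descriptions. They also take in differences between arrays that both channels share. Over the 6 ratios of DZN over control, the pairs named below had r from 0.52 (ifb-2 and ipla-6) to 0.97 (vha-6 and aagr-3). For the 3 genes most like elt-7, r over the ratios was 0.61 to 0.77. Elt-2 was most like T28A8.3 (r = 0.96), gna-2 (r = 0.91) and pqn-18 (r = 0.89), and elt-7 most like ttm-5 (r = 0.98), cyc-1 (r = 0.98) and ZC190.4 (r = 0.97). Pept-1 was most like cox-6A, pgm-2 and let-70 (r = 0.97 each), and vha-6 most like aagr-3 (r = 0.96), cogc-5 (r = 0.93) and lrpr-1 (r = 0.92). For act-5 they were iff-2 (r = 0.91), F42A10.5 (r = 0.88) and mua-6 (r = 0.88), for ifb-2 F33E11.2 (r = 0.90), micu-3 (r = 0.89) and ipla-6 (r = 0.88), and for ifo-1 ppm-1.A (r = 0.92), nhr-102 (r = 0.88) and spig-17 (r = 0.88). None of the 7 genes was among the 3 most similar to another of them. With only 3 of 8377 candidates taken per gene, this absence was likely in advance. It does not tell whether the 7 genes varied together.

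Related genes were then read from 9 lists, of which 65 of 68 genes were measured. Limma called 0 of the 65, 1 had an unadjusted p under 0.05 and rank products called 1, the same gene (pho-1). Over all worm probes these shares were 0.0178%, 10.9% and 1.16%. The ratio was positive for 38 of the 65 genes, and their median was 0.040, against -0.0057 over all genes. Among the endoderm regulators, which set up the intestinal lineage in the embryo, 0 of 5 were called (median -0.036). Here elt-4, a small neighbour and relative of elt-2 on chromosome X, had 0.16 ± 0.20 (adjusted p = 0.803) and end-1 had -0.15 ± 0.22 (adjusted p = 0.832) on a probe above background on 1 of 12 channels.

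Of the other brush border and terminal web genes 0 of 6 were called, and 5 of 6 had a positive ratio (median 0.14). The ezrin-type linker erm-1, which ties membrane to actin, had 0.25 ± 0.11 (adjusted p = 0.479, positive on 5 of 6 arrays), and the villin relative viln-1 had -0.058 ± 0.092 (adjusted p = 0.848). The other intestinal intermediate filaments and their partners had a median of -0.031 with 0 of 7 called, among them ifd-2 with 0.16 ± 0.12 (adjusted p = 0.65) and the kinase gene sma-5 with -0.15 ± 0.14 (adjusted p = 0.733). Intermediate filaments of other tissues had a median of 0.078 with 0 of 4 called. Their values with the smallest p in each direction were 0.11 ± 0.11 for ifa-1 (adjusted p = 0.752) and -0.019 ± 0.14 for ifa-3 (adjusted p = 0.975).

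The vacuolar ATPase genes other than vha-6 had a median of 0.036, with 0 of 19 called and ratios between -0.25 and 0.32. All 19 were above background on 12 channels. The membrane subunit gene vha-1 had 0.21 ± 0.098 (adjusted p = 0.499) and vha-12, for a subunit of the catalytic head, had -0.16 ± 0.11 (adjusted p = 0.635). For peptide uptake and acid transport 0 of 4 were called (median 0.053). Nhx-2, the apical sodium-proton exchanger that works with PEPT-1, had -0.20 ± 0.20 (adjusted p = 0.747), with -1.38 on DZN-Cy5 replicate 3, and pept-3 had 0.16 ± 0.15 (adjusted p = 0.72). Apical junction and polarity genes had a median of 0.070 with 0 of 9 called, among them the alpha-catenin gene hmp-1 with 0.25 ± 0.13 (adjusted p = 0.528) and dlg-1 with -0.15 ± 0.16 (adjusted p = 0.768). Of the actins, act-4 had 0.12 ± 0.092 (adjusted p = 0.657), positive on 6 of 6 arrays, and act-1 had -0.068 ± 0.092 (adjusted p = 0.815).

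The gut enzymes and gut granule genes had a median of 0.017 with 0 of 7 called, but held the widest ratios of the 9 lists. The intestinal acid phosphatase gene pho-1 averaged 12.57 ± 1.03 in DZN-treated and 13.41 ± 0.36 in control worms (SD, n = 6 channels each), with a log2 ratio of -0.84 ± 0.31 (adjusted p = 0.403 in limma). It was called lower by rank products and was negative on 5 of 6 arrays, with -2.65 on DZN-Cy5 replicate 2, -1.22 on DZN-Cy3 replicate 3 and values between -0.67 and 0.17 on the others. The gut esterase gene ges-1 averaged 12.01 ± 0.79 in DZN-treated and 11.46 ± 0.91 in control worms (SD, n = 6 channels each), a ratio of 0.55 ± 0.29 (adjusted p = 0.537). It was positive on 4 of 6 arrays, with 1.98 on DZN-Cy3 replicate 3 and 1.19 on DZN-Cy5 replicate 2. The arrays with the widest ratios of both enzymes were thus the same 2 on which act-5 was lowest in DZN-treated relative to control worms. Ratios were wide there for other genes too. Over all genes above background on 12 channels the median absolute log2 ratio was 0.34 on DZN-Cy5 replicate 2 and 0.38 on DZN-Cy3 replicate 3. It was 0.45 on DZN-Cy5 replicate 3 and 0.16 to 0.19 on the remaining arrays. A link between these genes was not tested.

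**Figure D4:**
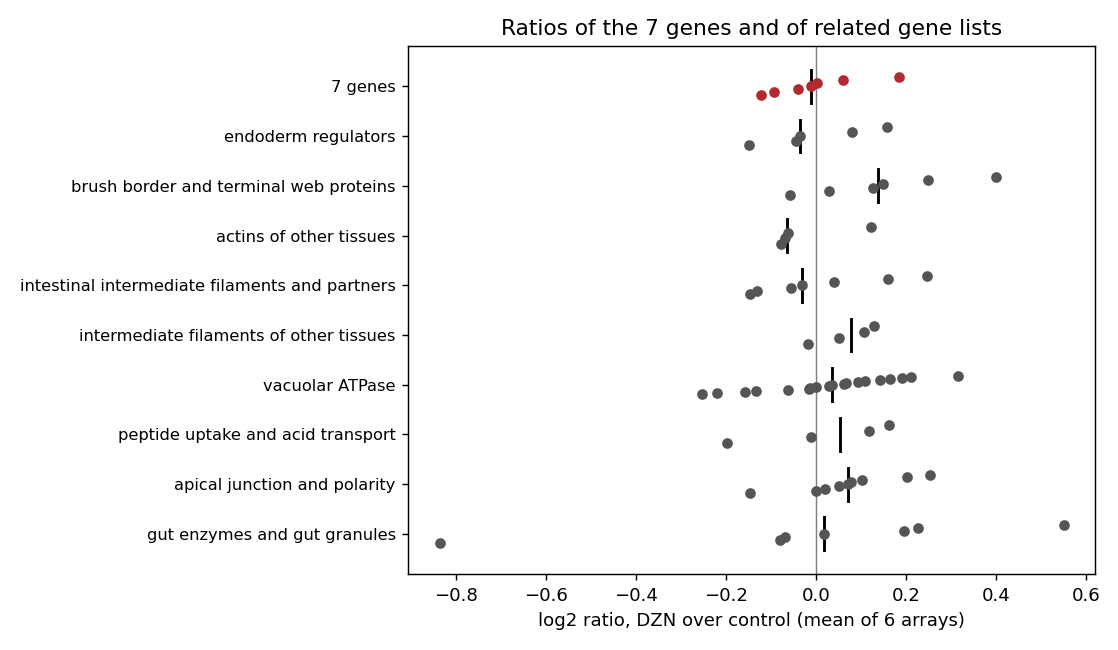
Log2 ratio of DZN over control (horizontal axis, mean of 6 arrays) of the 7 genes in the top row and of 9 lists of related genes below, with a point per gene and a black bar at the median of each row. The 7 genes lie between -0.12 and 0.18, and pho-1 at -0.84 and ges-1 at 0.55 are the widest points.

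The yolk genes vit-1 to vit-6, expressed in the intestine of adults, were set beside the 7 genes by array. Their median log2 ratio was -3.24, -0.53 and -0.26 for DZN-Cy5 replicates 1 to 3, followed by -4.17, -2.79 and 1.12 for DZN-Cy3 replicates 1 to 3. In the same order of arrays the medians of the 7 genes were 0.18, -0.15, 0.00097, -0.021, 0.044 and -0.15. The 7 genes thus stayed within 0.18 of 0 by their median on the 3 arrays where the yolk median was lowest, and on the others, while single members went as far as -1.11 and 1.04. For the yolk genes limma called 0 of 6, while 4 of 6 had an unadjusted p under 0.05 and rank products called all 6 lower in DZN-treated worms. Over all worm probes 10.9% had such a p and rank products called 1.16% in either direction. The 6 yolk genes are not 6 separate readings, as vit-3, vit-4 and vit-5 moved alike. On DZN-Cy3 replicate 1 these had ratios of -4.84, -4.90 and -5.20, and on DZN-Cy3 replicate 3 of 1.08, 0.97 and 1.17. Binding of RNA of one yolk gene to the probe of another was not tested. Over the 31 tissue markers, the yolk genes among them, limma called 0, against 0.0178% of all worm probes. With so few calls on the whole array, 0 calls do not show that the markers were unchanged. Besides the yolk genes, rank products called pho-1 lower, and pho-1, elt-3 and unc-64 had an unadjusted p under 0.05 in limma.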

How the data were processed

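Linear intensity values of the foreground and local background of each spot, not yet normalized, were taken from the scanner output that the authors deposited (ScanArray Express, by its headers). The percent of saturated pixels per spot came from the same deposited files. A second deposited file gave log2 ratios for every array. It equalled a loess fit without background correction, already turned to DZN over control (r of 1.0 on each array), and served as an alternative. The authors named limma, with no version. For the genome build of the probes, nothing is given in the sources used here.

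Here the mean foreground and median local background were corrected by normexp (offset 50), normalized by loess within arrays (control spots at weight 0) and Aquantile between arrays, and fitted per probe with lmFit and eBayes in limma 3.58.1 under R 4.3.3. Dye orientation was a term, and p-values were adjusted by Benjamini-Hochberg over 22490 worm probes (threshold 0.05, two-sided). Rank products used 100 permutations and a percentage of false positives under 0.05. The script was tested on simulated data. Probe names were matched to symbols through the RefSeq gene table of WBcel235 (21413 probes matched, 1077 did not and count as genes by their own name), used for names, chromosomes and neighbours. Control and empty spots (742) were left out. The number of arrays limits the precision.

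The 7 genes and the lists were chosen with earlier results of these data known. All probes of the 7 genes are named. Of each list, the called genes are named, or else the one with the smallest p in each direction, by its brightest probe. The most similar genes were the 3 with the highest Pearson correlation over 12 channel levels. The headers' dyes matched the labels on 6 of 6 arrays.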

Additional observations from a re-analysis of the deposited data

Results flagged for a closer look

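In 27 sets of 6 values (the log2 ratio, the level in DZN-treated worms and the level in control worms, for each of 9 probes), 5 held a value far from the other 5. Chance flags about 1 in 20 such sets, and the sets share arrays and channels. On DZN-Cy5 replicate 2 the level of elt-7 in DZN-treated worms was 8.95, against 10.57 to 11.46 on the other arrays. On that array pept-1 stood apart in its level in DZN-treated worms, 11.30 against 13.20 to 13.51, and in its log2 ratio, -1.11 against -0.12 to 0.39. The ifb-2 level of probe 1 in control worms was 14.13 on DZN-Cy3 replicate 3, against 14.58 to 14.81. The level of ifo-1 in DZN-treated worms was 11.56 on DZN-Cy5 replicate 3, against 12.13 to 12.46.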

How the results depend on the processing

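No setting brought a probe of the 7 genes past the threshold. Of 144 values (9 probes, 10 other settings with all arrays and 6 with 1 array left out) 124 kept their sign and 20 changed it, none of them called, with adjusted p between 0.514 and 0.999. Leaving out the between-array step, the dye term or dim probes, or adding the replicate block, cannot alter a ratio in this design. Signs kept under those settings were thus fixed in advance and are no evidence of stability. The authors' table and no background correction gave nearly the same ratios. The median over the 7 genes lay between -0.059 and 0.11, less than the SD over arrays (0.13) from its main value. The sign of elt-2 turned with no background correction (-0.0084), scale normalization (-0.037) and the authors' table (-0.0081). That of vha-6 turned with plain subtraction (0.0033), normexp at offset 0 (0.0014) and median centring (0.11), and median centring also turned act-5 (0.075) and ifo-1 (0.025). With median centring the median was 0.044 over all probes and 0.060 over those above background on 12 channels, against 0.11 over the 7 genes. The cause of these turns was not tested.

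With 1 array left out elt-2 ranged from -0.19 to 0.25, act-5 from -0.16 to 0.036, vha-6 from -0.058 to 0.039, pept-1 from -0.27 to 0.11, ifb-2 probe 2 from -0.047 to 0.17 and ifo-1 from -0.13 to 0.098. The signs of elt-7 and of ifb-2 probes 1 and 3 held throughout.

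The count over all worm probes, 4 with the main settings, was 2 with no background correction or in the authors' table, 0 with plain subtraction, 30 with median centring (19 higher and 11 lower), 8 with scale normalization, 14 with dim probes left out and 262 in rank products. Leaving out 1 array gave 0 to 132, with 132 found without DZN-Cy3 replicate 3.

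No pairing of the arrays by the replicate numbers of the titles was seen. Deviations of same-numbered arrays correlated at 0.15, -0.014 and -0.083, and 0 of 6 arrays correlated best with their own number. With so few arrays per dye orientation, this check cannot exclude that same-numbered arrays share an extract or batch. With the replicate block limma called 0 probes in all and 0 of the 9 (adjusted p 0.578 to 0.998). A block for slide or scan day was not run, as the 6 arrays lay on 6 slides scanned on 1 day.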
